A study of Mus musculus with 16 samples.

Results

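The 32 genes described here encode the enzymes of cholesterol synthesis, the SREBP2 machinery that controls them, and proteins that move, esterify or sense sterols. They were chosen by name from what their products do, not by a cut on measured values, and all 32 were present among the 24623 gene identifiers of the male table and the 24840 of the female table. They comprise 4 genes of SREBP2 control, 8 of the mevalonate and isoprenoid steps, 12 of the squalene and sterol steps, 6 of uptake, transport and esterification, and 2 that encode LXR nuclear receptors. Every one of the 32 passed the filter on low counts in each comparison. Poly(A) RNA was sequenced from 16 mouse livers, 1 library per mouse, in groups of 4 LKO females, 4 floxed females, 4 LKO males and 4 floxed males. LKO mice carried floxed alleles of Matr3, which encodes the nuclear RNA-binding protein matrin-3, together with Cre recombinase driven by the albumin promoter. Floxed mice carried the floxed alleles, and the labels call the LKO animals their littermates. All mice ate a high-fat diet (60% of energy as fat) for 16 weeks, starting at 7 weeks of age, and fasted for 12 hours before the tissue was taken. The albumin promoter is active in hepatocytes and their precursors, so liver cells of other origin should keep Matr3 in this model, which was not measured. In whole liver, fewer cells of a type and less RNA per cell cannot be told apart.

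Cells make cholesterol from acetyl-CoA through mevalonate, farnesyl diphosphate, squalene and lanosterol. The transcription factor SREBP2, encoded by Srebf2, is held in the endoplasmic reticulum with its escort SCAP for as long as sterols keep SCAP bound to an INSIG protein. When sterols run low SCAP carries SREBP2 to the Golgi, where proteases release the active fragment, which raises the genes of the pathway. The LXR receptors sense oxidised sterols and raise genes of sterol export, and the liver is the organ that exports cholesterol in bile.

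The Matr3 values of LKO and floxed livers did not overlap in either sex. LKO females 5 to 8 had 39.8, 36.6, 37.6 and 38.3 CPM (counts scaled to library size, on 1 scale for all 16 libraries), against 52.4, 64.0, 56.2 and 59.9 CPM in floxed females 1 to 4. LKO males 5 to 8 had 34.0, 36.9, 36.6 and 34.3 CPM, against 55.9, 53.6, 61.7 and 60.0 CPM in floxed males 1 to 4. The counts are summed over a gene and do not separate the deleted exons. Library totals lay between 30495505 and 36496193 counts. On the first principal component of the females (47.3% of the variance), LKO 7 (6.58) and floxed 4 (-10.3) lay nearer the middle than the other LKO (31.6 to 40.8) and floxed (-38.7 to -32.7) livers. Hepatocyte markers summed to 43338 to 61323 CPM in LKO females and 64335 to 74371 CPM in floxed females, against 73074 to 83237 CPM in LKO males and 67914 to 87075 CPM in floxed males. Alb made up much of these sums, with 17335 to 30347 CPM in LKO females and 42313 to 49505 CPM in floxed females. By gene, 8 of the 10 hepatocyte markers had a positive female log2 fold change, with a median of 0.50.

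Cholesterol synthesis genes were lower in LKO than in floxed females, with some of the 4 floxed livers close to the LKO livers, while in LKO males most members had positive log2 fold changes that were not called by edgeR. In females 14 of the 32 members fell and 1, Insig2, rose at an edgeR adjusted p under 0.05, and 23 had an unadjusted p under 0.05. Over all 15432 genes tested in females, 4.85% fell and 4.44% rose, and 27.7% had an unadjusted p under 0.05. The median log2 fold change of the members was -0.77, against 0.00 for all genes. In males 0 of the 32 members were called by edgeR, with 10 at an unadjusted p under 0.05, 5 called by DESeq2 and 0 by limma-voom. Over the 15355 genes tested in males, 0.528% were called higher and 0.514% lower, and 12.3% had an unadjusted p under 0.05. DESeq2 called 518 of these 15355 genes and limma-voom 155. The members' median log2 fold change in males was 0.21, with 23 positive and 9 negative values. The female count depended on single libraries. It was 2 without floxed 1, 2 without LKO 6, 3 without LKO 8 and 6 without LKO 5. It was 3 when floxed 1 and 4 were both left out, an alternative chosen after the values were seen. Calls over all genes also fell, from 1433 to 396, 622, 685, 509 and 558 in the same order. The members' median log2 fold change in these fits was -0.54, -0.74, -0.73, -0.76 and -0.27.

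**Figure D1:**
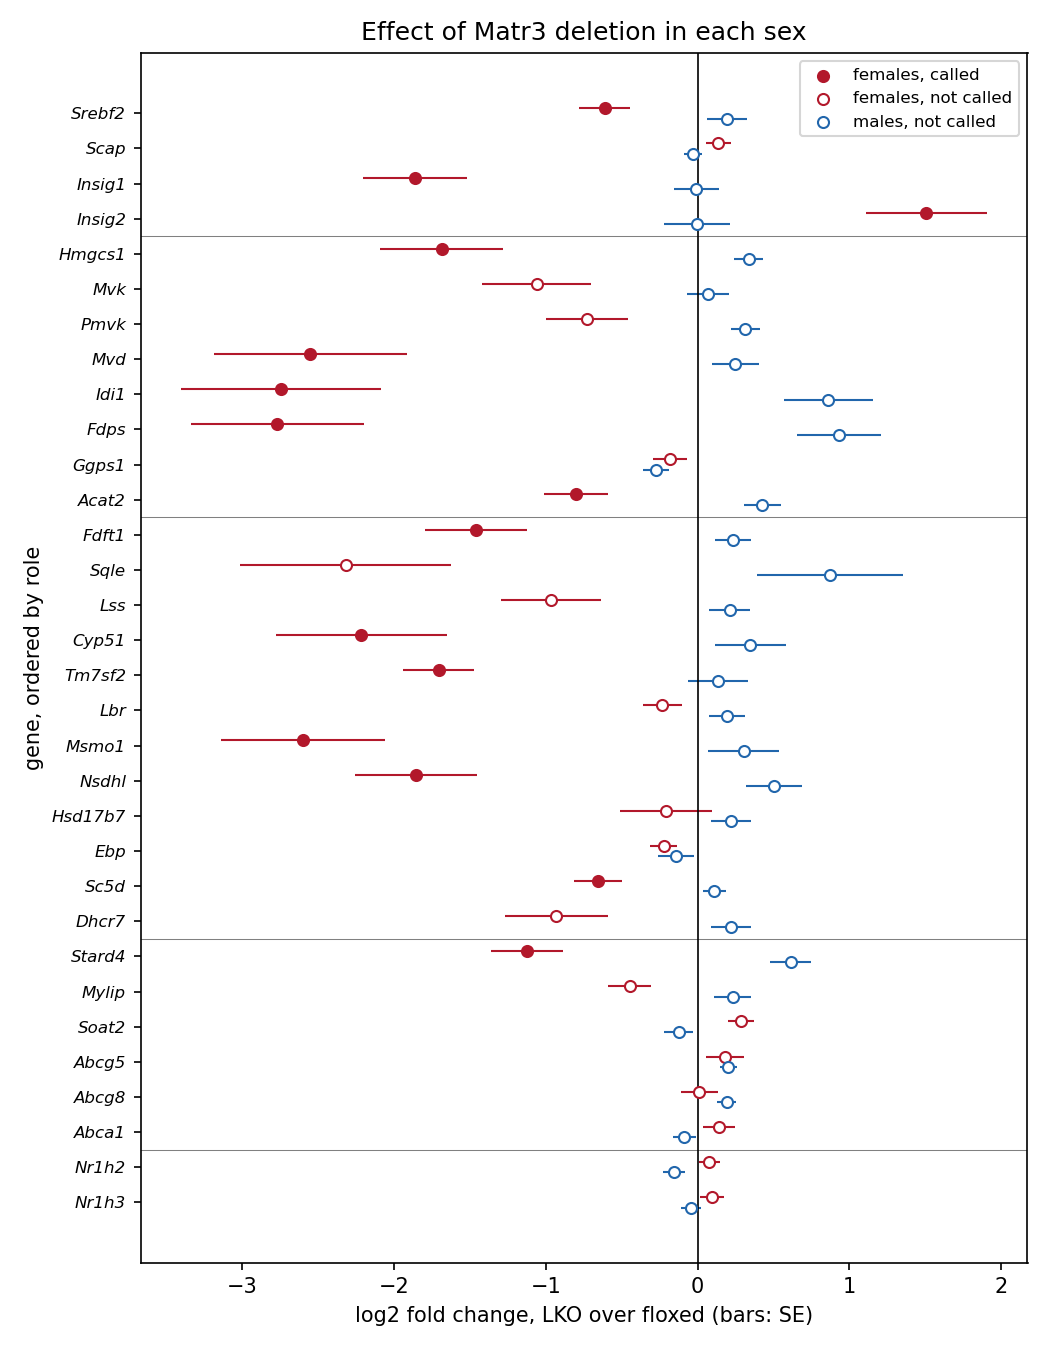
Log2 fold change (x axis) of each of the 32 members, ordered by role down the y axis, for LKO over floxed females (red) and LKO over floxed males (blue), with bars of 1 SE from the edgeR fit of 4 livers against 4. Filled points passed an adjusted p of 0.05: 15 points do so in females and 0 in males. In the synthesis steps all female points lie left of 0 and most male points right of it.

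Other transcripts moved in the same female livers. Of 14 acute-phase genes 12 rose in LKO females, where they summed to 80156, 123975, 54391 and 62563 CPM in LKO 5 to 8, against 17503, 19293, 24065 and 29916 CPM in floxed 1 to 4. Of 11 markers of liver endothelium 7 fell, with sums of 205 to 259.7 CPM in LKO females and 281 to 302 CPM in floxed females. That endothelial count was between 2 and 7 when 1 library was left out, and 1 without floxed 1 and 4. Of 11 markers of stellate cells and fibroblasts 2 fell, 6 had an unadjusted p under 0.05 and 10 had negative log2 fold changes, with sums of 449 to 493 CPM in LKO females and 524 to 611 CPM in floxed females. Their count was between 1 and 4 when 1 library was left out, and 0 without floxed 1 and 4. Among hepatocyte markers Alb and Ttr fell and Hnf4a and Tat rose, calls that numbered 0 without LKO 5, LKO 8 or floxed 1, and without floxed 1 and 4. Kupffer cell markers (0 of 11 called by edgeR, DESeq2 or limma-voom, 3 at an unadjusted p under 0.05) summed to 981 to 1486 CPM in LKO females, against 861, 866, 929 and 1289 CPM in floxed females 1 to 4. Neutrophil markers (0 of 7 tested called by edgeR, DESeq2 or limma-voom, 1 at an unadjusted p under 0.05) summed to 27.8 to 116 CPM in LKO females, against 16.1, 12.7, 16.6 and 79.1 CPM in floxed females 1 to 4. Floxed 4 was the highest floxed liver in both sums, and without it 4 Kupffer cell markers and 4 neutrophil markers were called higher. Cholangiocyte markers had 1 of 7 tested called lower in females, and lymphocyte markers 0 of 8 by any of these tools and 0 at an unadjusted p under 0.05. In males adipocyte markers (0 of 5 tested called by edgeR, 3 by DESeq2, 1 by limma-voom, 5 at an unadjusted p under 0.05) summed to 149 to 176 CPM in LKO livers and 62.4 to 93.8 CPM in floxed livers. Over all genes tested, 27.7% in females and 12.3% in males had an unadjusted p under 0.05. The part of these lists in the members' changes was not tested.

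Among the control genes, Insig1 fell and Insig2 rose in LKO females, and Srebf2 passed the threshold narrowly. Srebf2, on chromosome 15 (mm10, 82147181 to 82205379, plus strand), had 57.5, 56.7, 57.6 and 51.6 CPM in LKO females 5 to 8, against 112, 63.5, 67.4 and 98.3 CPM in floxed females 1 to 4. The female groups did not overlap, but floxed 2 and 3 lay within 10 CPM of the highest LKO liver. LKO females differed from floxed females by -0.61 on the log2 scale (SE 0.17, edgeR adjusted p = 0.0496), and this call ended in 9 of 16 alternatives, with an adjusted p up to 0.159. In males Srebf2 had 45.3, 61.4, 53.6 and 50.6 CPM in LKO livers and 42.2, 39.9, 42.8 and 59.6 CPM in floxed livers, and the groups overlapped (log2 fold change 0.19, edgeR adjusted p = 0.611). Its intron also holds Mir33, a microRNA gene that these counts do not measure.

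Scap, which encodes the escort and sterol sensor, varied little. LKO females had 162, 139.8, 146 and 137 CPM and floxed females 144, 130.4, 132 and 125 CPM. LKO males had 106, 104, 108 and 103 CPM and floxed males 98.6, 114, 112 and 105 CPM. The groups overlapped in both sexes, with log2 fold changes of 0.14 in females and -0.03 in males (95% intervals -0.05 to 0.32 and -0.16 to 0.10).

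Insig1 and Insig2 encode the proteins that retain SCAP in the endoplasmic reticulum, and Insig1 is itself a target of SREBP2. Insig1, on chromosome 5 (28071363 to 28078662, plus strand), had 54.2, 51.8, 72.5 and 33.001 CPM in LKO females, against 316, 145, 98.5 and 207 CPM in floxed females. Every LKO female lay below every floxed female, and floxed 1 stood highest. On the log2 scale the female change was -1.86 (SE 0.34, edgeR adjusted p = 0.0136), and of 16 alternatives only the omission of floxed 1 and 4 ended the call (log2 fold change -1.21, edgeR adjusted p = 0.0534). In males Insig1 had 95.9, 107, 117 and 115 CPM in LKO livers and 79.4, 136, 125 and 97.4 CPM in floxed livers. The male groups overlapped, at -0.01 on the log2 scale (95% interval -0.34 to 0.32).

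Insig2, on chromosome 1 (121304353 to 121332589, minus strand), ran the other way in females, with 287, 263, 231 and 711 CPM in LKO livers and 81.6, 89.3, 156 and 197 CPM in floxed livers. LKO 8 stood far above the other LKO females, which were themselves above all floxed females. The female log2 fold change was 1.51 (SE 0.40, edgeR adjusted p = 0.0441). The call ended without floxed 1, 2 or 3, without LKO 5, 6 or 8, and without floxed 1 and 4 together (log2 fold change 1.61), with an adjusted p up to 0.122. In males Insig2 had 205, 242, 187 and 199 CPM in LKO livers and 299.99, 243, 154 and 139 CPM in floxed livers, the floxed livers spanning the LKO range on both sides. Per kilobase of exon, mean levels in LKO females were 107 CPM for Insig2 and 17.1 CPM for Insig1, against 37.7 CPM for Insig2 and 61.9 CPM for Insig1 in floxed females. By liver, Insig2 per kilobase was above Insig1 in all 4 LKO females and in floxed 3 (44.8 against 31.8 CPM), and below it in floxed 1, 2 and 4. In males Insig2 per kilobase was above Insig1 in every LKO and every floxed liver. Male means were 59.96 CPM for Insig2 and 35.2 CPM for Insig1 in LKO livers, and 60.1 and 35.4 CPM in floxed livers. Female floxed 1, 2 and 4 were thus the only livers with Insig1 above Insig2.

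**Figure D2:**
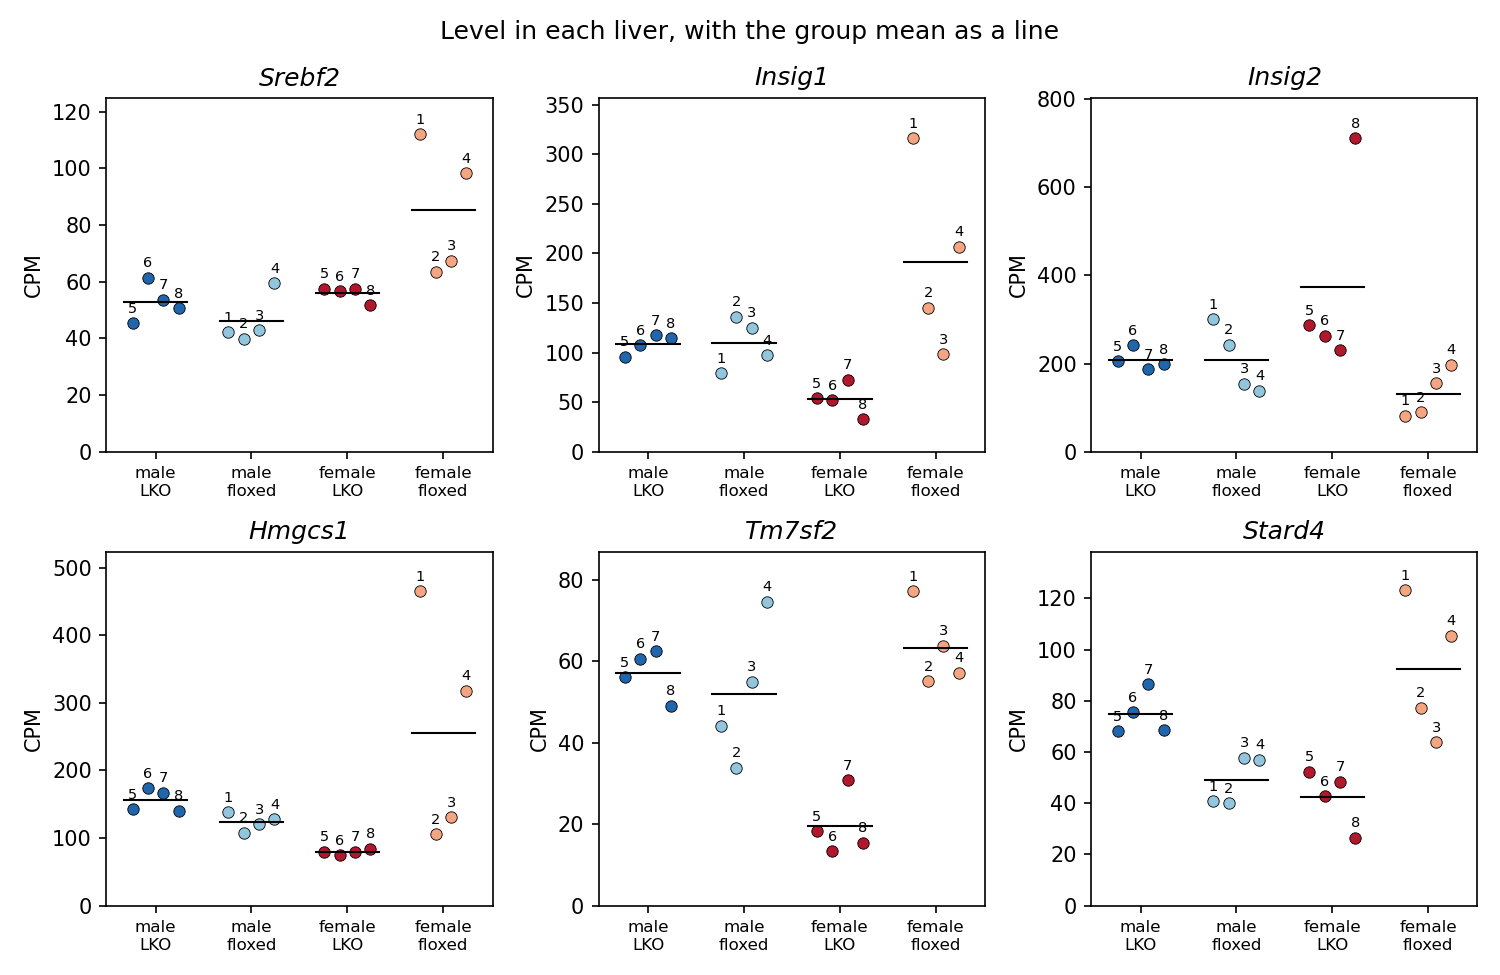
CPM (y axis, from 0) of 6 members in each liver of the 4 groups (x axis), with the library number above each point and the group mean as a line. Among floxed females livers 1 and 4 stand highest for Srebf2, Insig1, Hmgcs1 and Stard4, while for Tm7sf2 all 4 floxed females lie above all 4 LKO females (55.1 to 77.3 against 13.3 to 30.8 CPM).

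SREBP2 binds sterol regulatory elements and acts with NF-Y, which binds CCAAT boxes, and SP1, which binds GC boxes. Windows of 300 bases, 250 before to 50 after each RefSeq gene start (GRCm38.p6), were held for 27 of the 32 members. Hmgcs1 is shown because it was the only member window with the letters TCACNCCAC on either strand, a form of the sterol regulatory element. Tm7sf2 and Insig1 are shown because, among members with a window, they had the smallest p in females, a choice made after the motif search. Capitals mark TCACNCCAC, or CCAAT read on either strand (ATTGG where it lies on the other strand), and each sequence runs along its gene.
Hmgcs1, chr13:119690101-119690400, plus strand: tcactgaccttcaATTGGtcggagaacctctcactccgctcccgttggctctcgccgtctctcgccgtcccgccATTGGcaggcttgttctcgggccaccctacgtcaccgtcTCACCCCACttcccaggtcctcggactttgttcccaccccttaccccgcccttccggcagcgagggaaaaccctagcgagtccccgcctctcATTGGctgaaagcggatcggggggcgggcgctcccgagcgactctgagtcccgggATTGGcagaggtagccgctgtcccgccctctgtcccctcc
Tm7sf2, chr19:6067801-6068100, minus strand: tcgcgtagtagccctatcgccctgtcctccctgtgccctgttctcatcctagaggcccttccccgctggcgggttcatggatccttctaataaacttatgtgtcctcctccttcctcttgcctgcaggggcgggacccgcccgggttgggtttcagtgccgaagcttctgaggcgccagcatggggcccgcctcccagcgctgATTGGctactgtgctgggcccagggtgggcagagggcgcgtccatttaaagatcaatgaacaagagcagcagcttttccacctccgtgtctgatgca
Insig1, chr5:28071162-28071461, plus strand: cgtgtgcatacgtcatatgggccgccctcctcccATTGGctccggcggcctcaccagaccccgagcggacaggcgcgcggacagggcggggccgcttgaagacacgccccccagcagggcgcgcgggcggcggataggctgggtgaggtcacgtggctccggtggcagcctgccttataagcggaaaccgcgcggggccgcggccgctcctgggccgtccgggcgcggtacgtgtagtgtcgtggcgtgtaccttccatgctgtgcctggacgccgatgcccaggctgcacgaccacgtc
The Hmgcs1 match began 137 bases before the start. The Tm7sf2 window follows the RefSeq start and lies wholly inside the gene span used for the counts here (6062821 to 6068373), so it does not cover the upstream end of that span. Over all genes with a window, 1.44% of 27025 held TCACNCCAC, and a second form, TCACNCGA, tried after the first search, was in 0 of the 27 member genes and 1.3% of all genes. A CCAAT box on either strand was in 22 of the 27 members, among them 10 of the 11 with a window that fell in females and 12 of the other 16, and in 41.1% of all genes. The GC box letters GGGCGG, on either strand, were in 21 of the 27 members, all 11 that fell in females and 10 of the other 16, and in 38.2% of all genes. These are matches of letters in a short window, and binding was not measured.

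In the mevalonate and isoprenoid steps 5 of 8 genes fell in LKO females. In males 0 of 8 were called by edgeR, with 6 at an unadjusted p under 0.05 and 3 called by DESeq2. Summed over the 8 genes, LKO females 5 to 8 had 145, 136, 145 and 135 CPM, against 702, 182, 212 and 487 CPM in floxed females 1 to 4. LKO males had 250, 307, 287 and 252 CPM, against 222, 184, 220 and 239 CPM in floxed males. In these sums every LKO liver lay below every floxed liver in females and above every floxed liver in males. By gene, only Hmgcs1, Pmvk and Acat2 lay wholly above in males, Ggps1 lay wholly below, and the rest overlapped.

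Hmgcs1, on chromosome 13 (119690379 to 119708260, plus strand), encodes the cytosolic synthase that makes HMG-CoA. It had 79.4, 74.5, 79.6 and 83.8 CPM in LKO females, against 465, 105, 130.4 and 318 CPM in floxed females. The LKO livers lay close together and below all floxed livers, which differed more than 4-fold among themselves. LKO females differed from floxed females by -1.69 on the log2 scale (SE 0.40, edgeR adjusted p = 0.0324), and without floxed 1 and 4 by -0.57 (edgeR adjusted p = 0.0359). That call stood, but the call with all libraries ended in 5 of 16 alternatives, namely without LKO 5, LKO 6, LKO 8 or floxed 1 and without floxed 4 and LKO 7 together, with an adjusted p up to 0.0874. In males Hmgcs1 had 142, 174, 167 and 140.0 CPM in LKO livers and 138, 108, 120.5 and 127 CPM in floxed livers. The LKO males lay just above the floxed males without overlap, and the difference was called by DESeq2 (adjusted p = 0.0363) but not by edgeR (log2 fold change 0.34, SE 0.09, edgeR adjusted p = 0.153). Exons of Hmgcs1 overlap an antisense gene model, and the strand setting of the counting is not given in the sources used here.

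Idi1, the isomerase of isopentenyl diphosphate, had 7.48, 5.64, 5.04 and 3.02 CPM in LKO females, against 69.6, 8.53, 10.2 and 53.4 CPM in floxed females. Floxed 1 and 4 were far above the rest, and floxed 2 and 3 only just above the LKO livers. On the log2 scale the female change was -2.75 (SE 0.66, edgeR adjusted p = 0.0323), and without floxed 1 and 4 it was -0.82 and not called. In males Idi1 had 10.6, 20.9, 13.3 and 10.035 CPM in LKO livers and 7.41, 4.31, 7.20 and 11.2 CPM in floxed livers. These overlapped through floxed 4 (log2 fold change 0.86, SE 0.29, edgeR adjusted p = 0.235).

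Fdps, which encodes farnesyl diphosphate synthase, had 1.02, 0.733, 0.477 and 0.397 CPM in LKO females, against 8.85, 1.43, 2.24 and 5.42 CPM in floxed females. The female log2 fold change was -2.77 (SE 0.57, edgeR adjusted p = 0.0201), and without floxed 1 and 4 it was -1.48 and not called. In males it had 1.19, 3.26, 2.88 and 2.64 CPM in LKO livers and 1.32, 1.29, 1.27 and 1.33 CPM in floxed livers. LKO 6, 7 and 8 were above the floxed males and LKO 5 was below them (log2 fold change 0.93, SE 0.27, edgeR adjusted p = 0.172), and the difference was called by DESeq2 (adjusted p = 0.0398) and in the edgeR fit without LKO 5. These values rest on 13 to 287 counts per library, and Fdps shares exons with another gene model on the same strand, so its level is uncertain.

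Acat2, the acetyl-CoA acetyltransferase of the first step, had 23.5, 24.4, 27.7 and 18.4 CPM in LKO females, against 57.8, 31.8, 29.1 and 44.8 CPM in floxed females. LKO females differed from floxed females by -0.80 on the log2 scale (SE 0.21, edgeR adjusted p = 0.0423). In males the order was reversed, with 60.9, 66.4, 63.2 and 63.8 CPM in LKO livers and 39.3, 38.9, 52.4 and 58.6 CPM in floxed livers. The LKO males lay above all floxed males (log2 fold change 0.43, SE 0.12, edgeR adjusted p = 0.167), a difference called by DESeq2 and in the edgeR fit without floxed 4. Mvd, the mevalonate diphosphate decarboxylase, was the fifth gene that fell in females, with 1.83 to 2.58 CPM in LKO livers and 3.06 to 29.98 CPM in floxed livers (log2 fold change -2.55, edgeR adjusted p = 0.0360). The female calls of Idi1, Fdps, Acat2 and Mvd each ended without LKO 6, LKO 8 or floxed 1, with limma-voom, and without floxed 1 and 4. They also ended without LKO 5 in all of these but Fdps, and without floxed 2 or floxed 4 in Acat2.

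The other 3 genes of these steps were not called in females by edgeR, while DESeq2 and the fit of all 16 libraries called Mvk and Pmvk. Mvk, mevalonate kinase, had -1.06 on the log2 scale (edgeR adjusted p = 0.0898) and Pmvk, phosphomevalonate kinase, had -0.73 (0.113). Pmvk measured 9.94 to 13.6 CPM in LKO females, against 31.98, 12.2, 13.6 and 21.0 CPM in floxed females 1 to 4, so that floxed 1 and 4 stood apart from the other livers. Ggps1, which makes geranylgeranyl diphosphate for protein prenylation, departed from the rest. It had 10.1, 9.08, 9.18 and 9.34 CPM in LKO females, against 8.73, 10.9, 11.9 and 11.2 CPM in floxed females, and 9.96, 11.4, 10.5 and 9.49 CPM in LKO males, against 12.4, 11.4, 12.7 and 13.5 CPM in floxed males. The female groups overlapped, and the LKO males lay below the floxed males by a narrow margin (log2 fold change -0.28, SE 0.09, edgeR adjusted p = 0.190). Ggps1 overlaps exons of Arid4b on the opposite strand.

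In the squalene and sterol steps 6 of 12 genes fell in LKO females, and all 12 had negative log2 fold changes. In males 0 of 12 were called by edgeR, with 1 at an unadjusted p under 0.05. Summed over the 12 genes, LKO females had 673, 586, 702 and 524 CPM, against 1708, 839, 819.8 and 1307 CPM in floxed females. LKO males had 785, 865, 843 and 698 CPM, against 693, 597, 790.4 and 844 CPM in floxed males. The female groups did not overlap, and the male groups did.

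Tm7sf2, on chromosome 19 (6062821 to 6068373, minus strand), encodes a sterol C14-reductase and had the smallest female p of all members. LKO females had 18.2, 13.3, 30.8 and 15.4 CPM, against 77.3, 55.1, 63.8 and 57.2 CPM in floxed females. All 4 floxed livers stood well above the LKO livers, and floxed 1 and 4 were not set apart here. On the log2 scale the female change was -1.71 (SE 0.24, edgeR adjusted p = 0.00579), and it kept its call in all 16 alternatives (log2 fold change -2.06 to -1.56, edgeR adjusted p up to 0.0305). In males Tm7sf2 had 56.0, 60.6, 62.5 and 49.1 CPM in LKO livers and 44.2, 33.9, 55.0 and 74.7 CPM in floxed livers. Floxed males spanned the LKO range on both sides (log2 fold change 0.14, SE 0.20, edgeR adjusted p = 0.856). Some exons overlap Vps51 on the same strand, so reads may be shared between these genes. Lbr, the lamin B receptor, has the same C14-reductase activity and was not called in females (log2 fold change -0.23, edgeR adjusted p = 0.262), with 9.46 to 10.8 CPM in LKO livers and 9.78 to 14.4 CPM in floxed livers.

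Msmo1, on chromosome 8, encodes the C4-methylsterol oxidase and Nsdhl, on chromosome X, the dehydrogenase that follows it. Msmo1 had 27.9, 19.0, 21.4 and 13.2 CPM in LKO females, against 254, 44.8, 45.1 and 149 CPM in floxed females. Floxed 2 and 3 were above the LKO livers, and floxed 4 and 1 higher still. The female log2 fold change was -2.60 (SE 0.54, edgeR adjusted p = 0.0205), and without floxed 1 and 4 it was -1.14 (edgeR adjusted p = 0.0448), while the call ended without LKO 6, LKO 8 or floxed 1 (adjusted p up to 0.0591). Nsdhl had 8.22, 5.61, 5.66 and 4.58 CPM in LKO females, against 35.1, 10.5, 11.1 and 30.3 CPM in floxed females. LKO females differed from floxed females by -1.85 on the log2 scale (SE 0.40, edgeR adjusted p = 0.0230), and without floxed 1 and 4 by -0.84, which was not called. The Nsdhl call also ended without LKO 6, LKO 8 or floxed 1 and with limma-voom. In males the values were 47.4, 70.3, 63.4 and 42.2 CPM in LKO livers and 38.0, 28.3, 51.8 and 62.7 CPM in floxed livers for Msmo1. For Nsdhl they were 18.6, 22.2, 19.1 and 15.7 CPM in LKO males and 12.0, 9.02, 14.0 and 18.3 CPM in floxed males, and both genes overlapped between the male groups (log2 fold changes 0.30 and 0.51, edgeR adjusted p = 0.664 and 0.281).

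The other genes that fell were Fdft1, Cyp51 and Sc5d. Fdft1, squalene synthase, had 21.3 to 52.4 CPM in LKO females and 61.6 to 170.2 CPM in floxed females (log2 fold change -1.46, edgeR adjusted p = 0.0283). Cyp51, lanosterol 14-demethylase, had 10.6 to 27.4 CPM in LKO females and 26.6 to 149 CPM in floxed females, and LKO 5 overlapped floxed 2 (-2.21, 0.0386). Sc5d, lathosterol oxidase, had 199.7 to 311 CPM in LKO females and 336 to 505 CPM in floxed females (-0.66, 0.0329). Cyp51 lost its call in 9 of 16 alternatives, Sc5d in 6 and Fdft1 in 5, in each case among them without LKO 5, LKO 6, LKO 8 or floxed 1. Fdft1 overlaps exons of Ctsb, and Cyp51 those of Akap9, each on the opposite strand.

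Sqle, squalene epoxidase, varied more between livers than any other member in every group. It had 3.91 to 14.4 CPM in LKO females, and 84.6, 9.75, 11.3 and 65.4 CPM in floxed females 1 to 4. Floxed 2 and 3 lay inside the LKO range, and the log2 fold change of -2.32 was not called by edgeR (SE 0.69, edgeR adjusted p = 0.0634). Lss, which forms lanosterol, and Dhcr7, the last reductase for cholesterol, had log2 fold changes of -0.96 and -0.93 in females without a call (edgeR adjusted p = 0.0922 and 0.110). Hsd17b7, a ketoreductase of C4 demethylation, and Ebp, the sterol isomerase, had -0.21 and -0.22 (edgeR adjusted p = 0.691 and 0.144). DESeq2 and the fit of all 16 libraries called Sqle, Lss and Dhcr7 in females. In males the log2 fold changes of the genes of this group other than Msmo1, Nsdhl and Tm7sf2 ran between -0.14 for Ebp and 0.87 for Sqle. None of these was called, and their smallest edgeR adjusted p was 0.467, for Fdft1.

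Among the 6 genes of uptake, transport and esterification only Stard4 was called in females by edgeR, and 0 were in males, with 3 at an unadjusted p under 0.05 and 2 called by DESeq2. Stard4, on chromosome 18, encodes a soluble carrier of cholesterol between membranes. LKO females had 52.4, 42.7, 48.4 and 26.5 CPM, against 123, 77.3, 63.9 and 105 CPM in floxed females. Every LKO female lay below every floxed female. On the log2 scale the female change was -1.12 (SE 0.24, edgeR adjusted p = 0.0219), and the call ended without LKO 6, without floxed 1, and without floxed 1 and 4 together (-0.73), with an adjusted p up to 0.111. In males the groups were also apart, in the opposite order, with 68.2, 75.6, 86.5 and 68.6 CPM in LKO livers and 40.8, 39.9, 57.7 and 57.0 CPM in floxed livers. Stard4 had the smallest male p of all members (log2 fold change 0.61, SE 0.14, edgeR adjusted p = 0.0739). It missed the threshold in males in the main fit, with the filter and TMM scaling, and also with median-of-ratios scaling. It was called with library totals, with no filter and by DESeq2 (adjusted p = 0.00153).

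Abcg5 and Abcg8 together encode the transporter that secretes sterols into bile. Abcg5 had 159, 156, 144 and 159.7 CPM in LKO males, against 129, 138, 136 and 134 CPM in floxed males, and 174, 177, 178 and 137 CPM in LKO females, against 165, 165, 121 and 135 CPM in floxed females. The male groups did not overlap, by a small difference that was called by DESeq2 alone (log2 fold change 0.20, SE 0.06, edgeR adjusted p = 0.144), and the female groups overlapped. Abcg8 had log2 fold changes of 0.01 in females and 0.19 in males, with 147 to 158 CPM in LKO males and 124 to 146 CPM in floxed males. The 2 genes lie head to head and their annotated exons overlap on opposite strands. Mylip, a ubiquitin ligase that lowers lipoprotein uptake and an LXR target, had 6.99 to 11.03 CPM in LKO females and 11.03 to 13.3 CPM in floxed females (-0.45, edgeR adjusted p = 0.0732). Soat2, which esterifies cholesterol in hepatocytes, had 57.8 to 67.7 CPM in LKO females and 44.2 to 55.1 CPM in floxed females (0.29, 0.0692). Neither overlapped between the female groups, but Mylip was apart only by 11.0254 CPM in LKO 7 against 11.0287 CPM in floxed 3. Neither gene was called by edgeR within the females, but DESeq2 and the fit of all 16 libraries called both. Mylip was also called with library totals, without LKO 7, and without floxed 4 and LKO 7. Abca1, the exporter of cholesterol to apolipoprotein particles, had log2 fold changes of 0.14 in females and -0.09 in males.

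Over all members, the LKO livers lay wholly below the floxed livers for 14 in females and 1 in males, and wholly above for 2 in females and 6 in males. The shares of all genes so placed were 8.31% below and 7.61% above in females, and 4.18% below and 3.96% above in males. The 6 above in males were Hmgcs1, Pmvk, Acat2, Stard4, Abcg5 and Abcg8, the 1 below was Ggps1, and none of these 7 was called by edgeR. Among the 14 below in females, Mylip was apart only by the very small margin given earlier.

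Neither LXR receptor gene was called in either sex. Nr1h3, which encodes LXR alpha, the main form of hepatocytes, had 125, 129, 125 and 119.8 CPM in LKO females and 119, 115, 106 and 126 CPM in floxed females. In males it had 109.7, 99.5, 102 and 107 CPM in LKO livers and 100.4, 108, 105 and 118 CPM in floxed livers. Nr1h2, for LXR beta, had 55.6, 56.5, 53.1 and 59.7 CPM in LKO females and 56.1, 52.5, 53.9 and 50.5 CPM in floxed females. Its values were 36.7, 33.2, 36.7 and 38.0 CPM in LKO males and 42.7, 41.6, 35.5 and 41.3 CPM in floxed males. All 4 pairs of groups overlapped, and the log2 fold changes ran between -0.16 (Nr1h2 in males, 95% interval -0.32 to 0.01) and 0.09 (Nr1h3 in females, 95% interval -0.08 to 0.27).

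The effects of the deletion in the sexes were compared directly, as the female log2 fold change minus the male one in a fit of all 16 libraries. For 13 of the 32 members the difference was called, lower in females in each, against 2.45% lower and 1.97% higher among all 16126 genes. The 13 were Insig1, Hmgcs1, Mvd, Idi1, Fdps, Acat2, Fdft1, Cyp51, Tm7sf2, Msmo1, Nsdhl, Sc5d and Stard4. The smallest p belonged to Stard4, with a difference of -1.73 (SE 0.30, edgeR adjusted p = 0.00743), then Fdps with -3.70 (0.68, 0.00991) and Tm7sf2 with -1.84 (0.34, 0.0100). These 3 kept their call in all 25 alternatives. Nsdhl (-2.36), Acat2 (-1.22) and Idi1 (-3.60) followed, with edgeR adjusted p of 0.0141, 0.0170 and 0.0175. The calls of Mvd and Cyp51 each ended in 15 of the 25 alternatives, among them the omission of any single LKO male. That of Sc5d ended in 7. Srebf2 (-0.80, adjusted p = 0.0596), Sqle (-3.19, 0.0630) and Insig2 (1.51, 0.0904) were not called by edgeR, and DESeq2 called Srebf2 and Sqle. The count was 5 without female floxed 1 and 4 (Hmgcs1, Fdps, Tm7sf2, Nsdhl and Stard4), and 4 without male floxed 1 and 2, whose mouse numbers lie apart from those of all other mice. Males and females came in separate tables, so sex and any difference in handling between the tables cannot be told apart.

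The 4 floxed females were not alike. Floxed 1 was the highest of the 4 for 23 of the 32 members, against 24.7% of all genes. Floxed 2 was the lowest for 15 and floxed 3 for 11, against 22.9% and 22.7%. Single livers also led the ranking in the other groups. Male LKO 6 was the highest of its group for 19 members and male floxed 4 for 18 (27% and 25.9% of all genes). Male floxed 2 and female LKO 8 were each the lowest for 20 (23.7% and 27.6%). Summed over all 32 members, floxed females 1 to 4 had 3871, 2217, 2148 and 3140 CPM, with 2121, 2014, 2113 and 2275 CPM in LKO females 5 to 8. Floxed 2 and 3 lay inside the LKO range in this sum, but above it in the sums of the mevalonate steps and of the sterol steps given earlier. Only LKO 8 lay above floxed 2 and 3 in the sum of all 32, and 711 of its 2275 CPM were Insig2, which was higher in LKO females. The SD of log2 CPM within the group had a median of 0.54 over the members in floxed females, against 0.18 over all genes. In LKO females it was 0.23 against 0.20, in LKO males 0.15 against 0.13, and in floxed males 0.22 against 0.17. The mouse numbers of floxed 1 and 4 are L2417 and L2416, and those of floxed 2 and 3 are L2387 and L2385. LKO females carry L2392, L2390, L2388 and L2399. The labels do not say what the numbers stand for. Acute-phase sums were lowest in floxed 1 and highest in floxed 4 among floxed females.

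**Figure D3:**
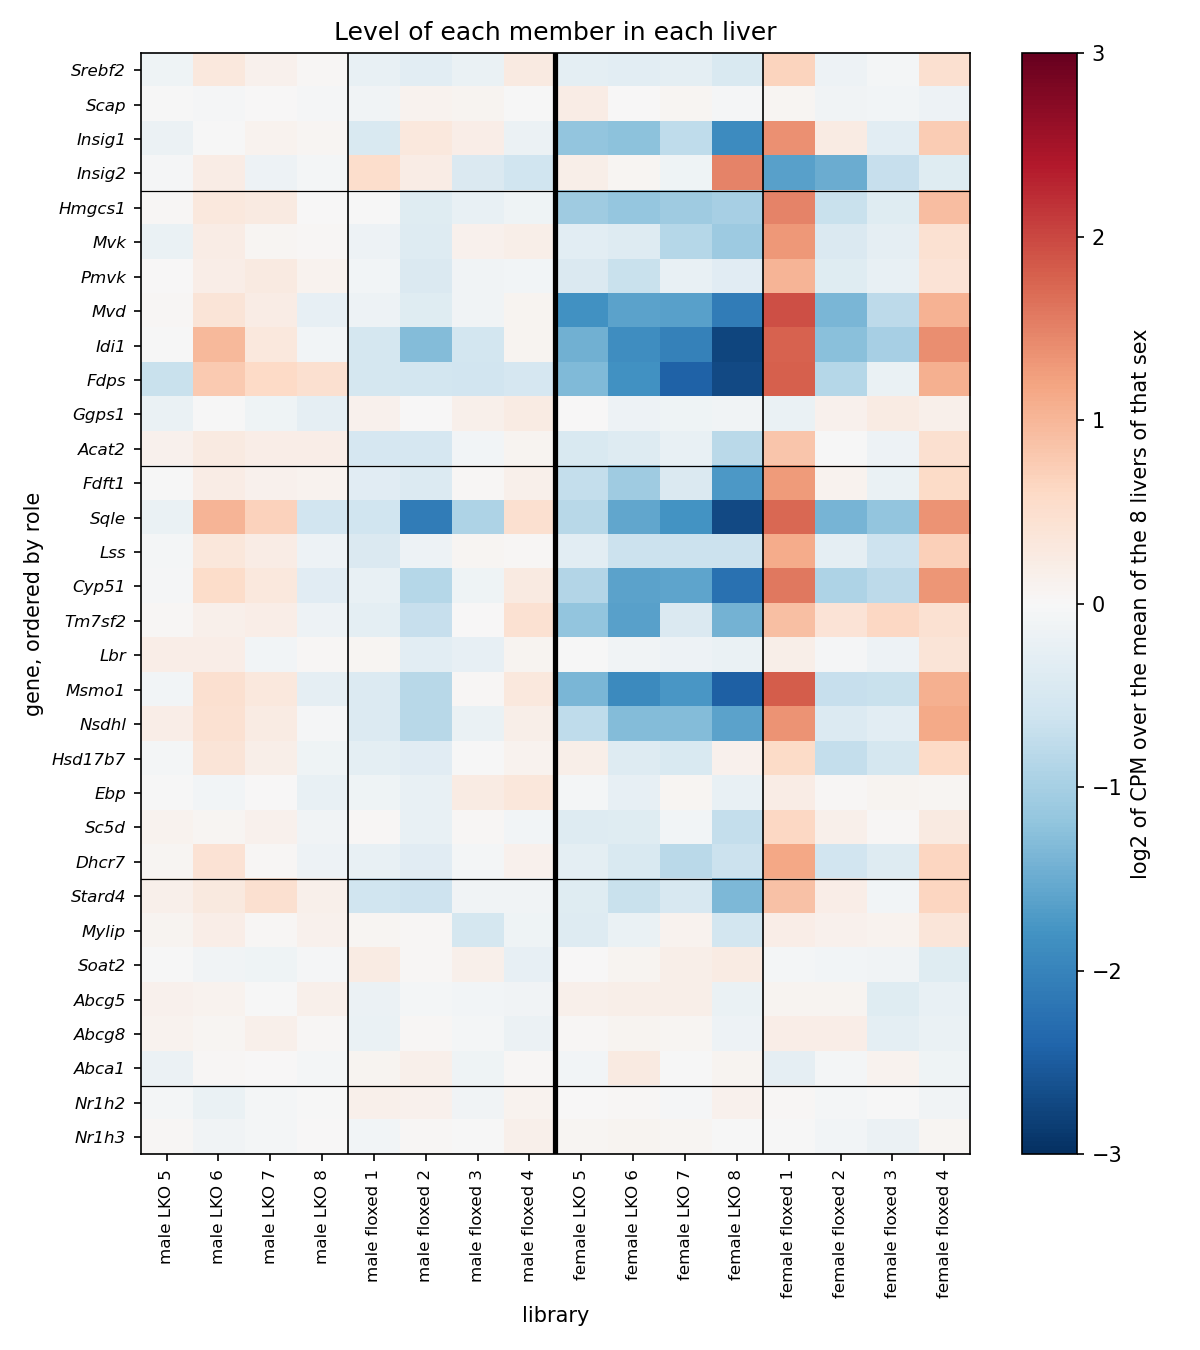
Heat map of log2 of CPM over the mean of the 8 livers of the same sex, with the 32 members by role down the y axis and the 16 livers along the x axis, LKO left of floxed within each sex. Female floxed 1 and 4 are red across most synthesis genes, female floxed 2 and 3 pale to blue, and LKO 8 the deepest blue of the LKO females, while Insig2 is deepest red in LKO 8 and blue in floxed 1 and 2.

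Leaving out floxed 1 and 4 moved most members towards 0 but reversed none that was called. With 4 LKO females against floxed 2 and 3, 3 members were called, all lower: Hmgcs1, Msmo1 and Tm7sf2. The median log2 fold change of the members was -0.27, and 23 of 32 were negative, against 24 with all libraries. Over all genes 558 were called, against 1433 with all libraries. Fdft1 (-0.87), Nsdhl (-0.84), Idi1 (-0.82), Mvd (-0.73) and Cyp51 (-0.65) were negative without a call. Insig2 (1.61) and Tm7sf2 (-1.61) had much the same value as with all livers.

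**Figure D4:**
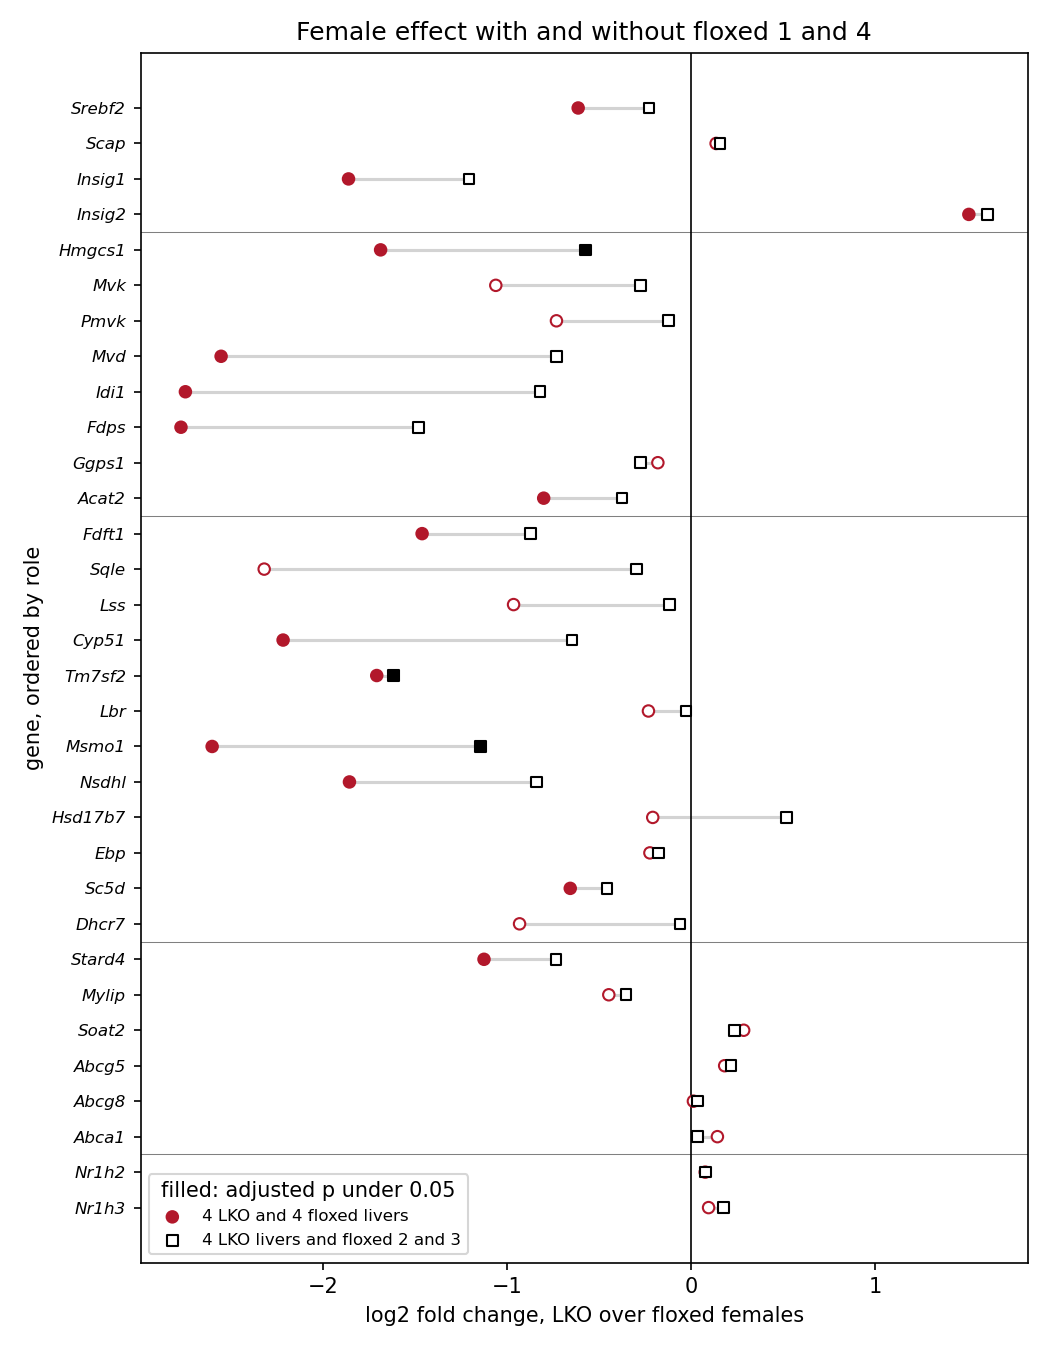
Log2 fold change (x axis) of the 32 members (y axis, by role) in LKO over floxed females with all 4 floxed livers (red circles) and with floxed 2 and 3 alone (black squares), filled where the adjusted p was under 0.05. Idi1 shifts to -0.82 without floxed 1 and 4 and is at -2.75 with them, whereas Tm7sf2 is at -1.61 without and -1.71 with them.

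Between floxed livers, 17 of the 32 members were higher and 1 was lower in females than in males, against 11.3% and 11.6% of all 16126 genes. Sqle had the largest log2 difference at 2.85 (SE 0.68, edgeR adjusted p = 0.00707), then Idi1 at 2.23 (0.55, 0.00857), Fdps at 1.78 and Mvd at 1.76. Srebf2 was higher by 0.89 (0.17, 0.00132), at 63.5 to 112 CPM in floxed females and 39.9 to 59.6 CPM in floxed males. Nr1h2 (0.40) and Scap (0.31) were also higher in females, and Abca1 (-0.38) was the 1 gene lower in them. Without female floxed 1 and 4 only Srebf2 (0.50), Scap (0.28) and Nr1h2 (0.40) stayed higher, Acat2 (-0.64) was called lower, and the differences of Hmgcs1 (-0.07), Mvd (-0.07) and Msmo1 (-0.02) turned to the other side of 0. The count was 10 without female floxed 1, and 4 without male floxed 1 and 2. Floxed females also had higher Kupffer cell markers than floxed males (10 of 11 called), with sums of 861 to 1289 CPM in floxed females and 301 to 479 CPM in floxed males, and higher acute-phase genes (9 of 14) and neutrophil markers (5 of 7 tested). Adipocyte markers (3 of 5 tested) and 3 of 11 stellate cell and fibroblast markers were lower in floxed females, where 1 of these 11 was higher, and 3 of 10 hepatocyte markers were lower and 1 higher. The acute-phase count was 4 without female floxed 4, male floxed 2 or male floxed 3, and the neutrophil count was 0 without female floxed 4 and 1 to 3 without male floxed 1, 2 or 3. The part of these lists in the members' difference was not tested.

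Levels within the set differed widely. Per kilobase of exon, mean levels in LKO females were highest for Insig2 (107 CPM), Abcg5 (61.4 CPM) and Ebp (60.0 CPM) and lowest for Fdps (0.156 CPM) and Mvd (1.24 CPM). In floxed females they were highest for Sc5d (82.2 CPM), Ebp (69.96 CPM), Insig1 (61.9 CPM) and Hmgcs1 (55.5 CPM) and lowest for Fdps (1.07 CPM) and Ggps1 (2.26 CPM).

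Genes next to the pathway were followed through lists fixed with earlier results known. Of 13 genes of acetyl-CoA supply and other SREBP2-responsive genes, 5 fell in LKO females, 0 rose, and the count was 3 without floxed 1, without LKO 5, or without floxed 1 and 4. Cyb5b, an outer mitochondrial cytochrome b5, had 178, 183, 233 and 176 CPM in LKO females and 356, 329, 327 and 309 CPM in floxed females (-0.78, edgeR adjusted p = 0.00535). Acss2, which makes acetyl-CoA from acetate, had 41.6, 39.7, 51.5 and 36.7 CPM in LKO females and 93.9, 78.5, 79.8 and 61.9 CPM in floxed females (-0.89, 0.00767). Neither overlapped between groups, and floxed 1 and 4 did not stand apart from floxed 2 and 3 as a pair in either. Mmab, a cobalamin enzyme whose gene shares a promoter region with Mvk, fell by 1.09 on the log2 scale (edgeR adjusted p = 0.0113). In males Cyb5r3 (0.32) and Acly (0.40) were the 2 called, both higher, and the number was 0 or 1 without any 1 of the 8 male libraries.

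Of 12 genes of SREBP processing and sterol-regulated degradation, such as the proteases Mbtps1 and Mbtps2, 0 were called in either sex by edgeR. In each sex 3 had an unadjusted p under 0.05, against 27.7% of all genes in females and 12.3% in males. DESeq2 called 1 in each sex and limma-voom 0. Of 14 genes of the isoprenoid branch, which serves ubiquinone, dolichol and protein prenylation, 0 were called, with 1 at an unadjusted p under 0.05 in females and 2 in males, and 0 by DESeq2 or limma-voom in either. The synthesis genes and this branch thus had different counts, a contrast that was not itself tested. Of 19 genes of sterol movement and storage, Vldlr, a lipoprotein receptor, fell (-1.33, edgeR adjusted p = 0.0311) and Nceh1, a cholesteryl ester hydrolase, rose (0.62, 0.0424) in females. Both calls ended without LKO 5, LKO 6 or floxed 1, 2 or 3, and 1 remained without LKO 8. None of the 19 was called in males, with 8 at an unadjusted p under 0.05 and 3 called by DESeq2.

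Of 11 LXR partners and targets, Srebf1, which encodes SREBP1, was the 1 called in females, with 59.6, 72.9, 67.0 and 31.7 CPM in LKO livers and 209, 195, 139 and 149 CPM in floxed livers. All LKO females lay below all floxed females (log2 fold change -1.58, SE 0.24, edgeR adjusted p = 0.00745). None of the 11 was called in males by edgeR, with 4 at an unadjusted p under 0.05 and 2 called by DESeq2. Of 7 tested genes of oxysterol and bile acid synthesis, Cyp46a1 and Akr1d1 fell in females (-1.26 and -1.45) and Cyp8b1, the sterol 12-hydroxylase, rose in males (0.49, edgeR adjusted p = 0.0368). The female count was 1 without LKO 5, LKO 6, floxed 1 or floxed 2, and the male count 0 without any 1 library other than floxed 1.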

How the data were processed

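Per the labels' protocols, TRIzol extracts of liver went into directional libraries enriched for poly(A) RNA at Novogene. The authors deposited 1 table of whole-number counts per gene for each sex, with 8 libraries each, and these counts were used as given. Per the submitters' processing notes, genome build mm10 was used. The aligner, the counter and the strand setting are not given in the sources used here, so where exons of 2 genes overlap their reads cannot be told apart. Symbols and positions came from GENCODE M21 on that build. Identifiers without a symbol, 26 in the male and 28 in the female table (0.0289% and 0.0349% of counts), stayed in the tests.

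Groups came from the labels. LKO and floxed livers were compared within each sex, and a joint model of the 16 libraries over the 23167 shared identifiers gave the difference of the effects and the comparison of floxed females with floxed males. Low counts were removed by filterByExpr (at least 10 in enough libraries, and at least 15 in total). TMM scaling was applied, and tests were those of edgeR 4.0.16 (quasi-likelihood F-test, two-sided) in R 4.3.3. Calls needed a p under 0.05 after Benjamini-Hochberg adjustment over all genes tested. CPM values share 1 TMM scale over the 16 libraries, and the fold changes in each sex come from that sex's own fit. Levels per kilobase use the exonic length of each gene. Counting error was not set apart from the spread between mice. It is largest relative to the level where counts are low, as for Fdps (13 to 287 counts per library) and Mvd (60 to 972).

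The members, the gene lists and the alternatives were chosen with earlier results of these data known, and all lists are described by counts, with no test of a list. Values of every library are given for the 6 smallest p in each sex and for the difference, and for the SREBP2 control and LXR genes. From other lists the called genes with the smallest p may be named. Alternatives were DESeq2 1.42.0, limma-voom (limma 3.58.1), median-of-ratios scaling, library totals, no filter, the 16-library fit, a replicate block, omission of each library, of male floxed 1 and 2, and of female floxed 4 with female LKO 7. Omission of female floxed 1 and 4 was added after the values were seen. No pair of replicate libraries was close enough to be copies of 1 library (a chi-square of at least 12.7 per degree of freedom). The procedure was tested on simulated counts. Some genes of the pathway are not analysed here.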

Additional observations from a re-analysis of the deposited data

Results flagged for a closer look

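Single livers stood apart from the other 3 of their group for 6 member and group pairs of the 128 checked, by a gap above Dixon's 95% critical value, which chance alone gives in about 1 of 20 groups. Female LKO 8 accounted for 3 of them. Insig2 measured 711 CPM there, against 231 to 287 CPM in the other LKO females. Abcg5 measured 137 CPM in the same liver, against 174 to 178 CPM in the others, and Srebf2 measured 51.6 CPM, against 56.7 to 57.6 CPM. Lss was high in female LKO 5 (24.2 CPM, others 19.1 to 19.2 CPM). In floxed males, Srebf2 was high in floxed 4 (59.6 CPM, others 39.9 to 42.8 CPM) and Pmvk was low in floxed 2 (9.66 CPM, others 12.0 to 12.3 CPM).

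The effect of the deletion differed between females and males for 13 members by the edgeR test of the difference itself. The female log2 fold change minus the male one was -3.70 for Fdps, -3.60 for Idi1, -2.90 for Msmo1, -2.80 for Mvd, -2.56 for Cyp51, -2.36 for Nsdhl and -2.02 for Hmgcs1. It was -1.85 for Insig1, -1.84 for Tm7sf2, -1.73 for Stard4, -1.69 for Fdft1, -1.22 for Acat2 and -0.76 for Sc5d. The calls of Mvd and Cyp51 each ended in 15 of 25 alternatives, and that of Sc5d in 7. All 13 had a negative female value. In males 12 had a positive value and Insig1 was near 0 (-0.01).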

How the results depend on the processing

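The number of members called in males (0) was 1 with library totals or no filter, 5 with DESeq2, and 0 to 1 when any 1 library was left out. In females (15) it was 22 with DESeq2 or the fit of all 16 libraries, 8 with limma-voom, 3 without floxed 1 and 4, and 2 to 15 without any 1 library. For the difference of the effects (13) it was 20 with DESeq2, 4 without male floxed 1 and 2, and 5 without female floxed 1 and 4. Between floxed females and floxed males (18) it was 11 with limma-voom, 4 without male floxed 1 and 2, 4 without female floxed 1 and 4, and 10 to 24 without any 1 library. The omissions of several libraries also leave fewer samples to estimate the spread, and other causes of these shifts were not tested. Members called in females, or by the test of the difference, all kept the sign of their log2 fold change in every alternative. For males this could not be asked, because the main fit called no member. Without male floxed 1 and 2, the uncalled male values of Mvk (-0.13), Tm7sf2 (-0.19), Msmo1 (-0.04) and Insig2 (0.51) changed sign. The other members kept theirs in that fit. Between floxed females and floxed males, Hmgcs1 (-0.0723), Mvd (-0.0651) and Msmo1 (-0.0151) reversed without female floxed 1 and 4. Deviations of same-numbered livers of the sexes from their group means had correlations of -0.12 to 0.13. Such correlations cannot settle whether the numbers pair mice, and the numbers are not known to do so. With a replicate block the count between floxed livers was 8, and that for the difference of the effects was 13, with 11 shared. LKO and floxed livers of a sex share no number. Over all genes, calls numbered 69 to 518 in males and 396 to 3028 in females across the alternatives.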
